A study of Mus musculus with 15 samples.

Results

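The transcripts described here are 10 heat shock proteins and chaperones, Hspa1a, Hspa1b, Hspa8, Hsp90aa1, Hsp90ab1, Hsph1, Dnajb1, Hspd1, Hspe1 and Hspa5. They were taken by gene symbol from the array's annotation, with the brightest probe set that carries the symbol of that gene alone. Of the 10 genes, 8 had a probe set that carries their symbol alone, and all 8 passed the filter on dim signals, among 10834 genes that did so. Hspa1b was named only on a probe set shared with Hspa1a, and Hsp90ab1 was not named in the annotation used here, so neither had a test of its own.

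The study profiled RNA from sorted splenic CD4+CD25+ cells, labelled regulatory T (Treg) cells, of mice on 15 Affymetrix arrays. Ikzf2 encodes Helios and Ikzf4 encodes Eos, zinc finger transcription factors of the Ikaros family that are expressed in Treg cells. The groups were wild type (WT, 6 arrays), Ikzf2-/- (3 arrays), Ikzf4-/- (3 arrays) and mice lacking both genes (dKO, 3 arrays). The labels state no age, sex, strain background or design of the deleted alleles, nor whether each array is a separate mouse, so every p-value covers the array-to-array spread, which may be technical. WT arrays 1 to 3, Ikzf4-/- and dKO formed a first set and WT arrays 4 to 6 with Ikzf2-/- a second set, as judged from exactly equal values. Pairs of arrays shared a mean of 2286 equal values within the first set, 34.4 within the second and 0.0741 across them. For that reason each knockout was tested against WT from the same set, except in an alternative with WT pooled. Ranges over all 15 arrays take in the offset between sets. Its median over all genes was -0.39 in WT arrays 4 to 6 against WT arrays 1 to 3.

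Chaperones bind unfolded or newly made proteins and use cycles of ATP binding to help them fold. Hsp70 proteins work with J-domain partners that deliver clients and with Hsp110 proteins that exchange nucleotide, and Hsp90 acts later on kinases and receptors. The heat shock factor Hsf1 switches on the inducible members when unfolded protein accumulates, and the endoplasmic reticulum (ER) has its own response. In T cells, cell isolation, warming and activation are known to raise inducible members.

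Foxp3, the defining Treg transcription factor, had a log2 signal of 10.10 to 11.16 on the 15 arrays. Ikzf2 signal was 9.14 to 10.06 in Ikzf2-/- against 10.25 to 10.38 in its WT, and 10.59 on the array labelled dKO 3, within the 10.46 to 10.76 of WT arrays 1 to 3. Ikzf4 signal was 8.13 to 8.22 in Ikzf4-/- and 7.83 to 8.07 in WT. The position of these probe sets relative to the deletions was not used here, so their signals do not check the labels. A list of 8 detected B cell genes averaged 7.65 on the array labelled Ikzf2-/- 3 and 6.72 on WT 1, against 4.35 to 5.82 on the other 13 arrays. Neutrophil genes averaged 6.31, 5.71 and 8.68 in Ikzf2-/- against 5.28, 4.79 and 5.33 in its WT, so all Ikzf2-/- arrays were above all WT arrays of the set. The 8 Treg markers had their lowest mean, 9.51, on Ikzf2-/- 2. The Y-linked Eif2s3y was at 7.94 to 8.81 on WT 3, Ikzf4-/- 3, dKO 2 and dKO 3, and at 2.87 to 3.09 on the other arrays, so the first set mixes the sexes unevenly.

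Start-site sequences were available for 7 of the 10 genes and are shown because they let the heat shock and ER stress motifs of the members be seen side by side, and because those of Hspa1a and Hspa1b are nearly the same. They come from RefSeq (build GRCm38.p6), read 5′ to 3′ on the gene's strand and end at the last base before the annotated start. Capitals mark a match to a heat shock element or an ER stress response element.
Hspa1a: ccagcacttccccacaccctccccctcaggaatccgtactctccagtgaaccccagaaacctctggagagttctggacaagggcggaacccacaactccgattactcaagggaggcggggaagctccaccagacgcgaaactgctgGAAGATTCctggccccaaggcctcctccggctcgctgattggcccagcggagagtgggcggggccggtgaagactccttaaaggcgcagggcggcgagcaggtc
Hspa1b: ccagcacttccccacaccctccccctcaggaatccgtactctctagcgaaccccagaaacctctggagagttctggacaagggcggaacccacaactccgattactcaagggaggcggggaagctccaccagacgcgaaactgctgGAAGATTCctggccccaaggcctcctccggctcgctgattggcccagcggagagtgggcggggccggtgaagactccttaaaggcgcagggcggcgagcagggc
Hspe1: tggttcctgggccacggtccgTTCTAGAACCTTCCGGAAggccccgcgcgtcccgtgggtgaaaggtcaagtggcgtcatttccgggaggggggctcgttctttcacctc
Hsph1: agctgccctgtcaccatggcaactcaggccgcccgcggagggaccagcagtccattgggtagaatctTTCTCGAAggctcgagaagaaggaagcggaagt
Hspa5: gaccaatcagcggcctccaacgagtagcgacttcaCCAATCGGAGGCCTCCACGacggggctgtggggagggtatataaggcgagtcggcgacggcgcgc

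The Hspa1a stretch lies at chr17:34972157-34972406 and that of Hspa1b at chr17:34959239-34959488, both on the minus strand. Over their 300-base windows, which run on past the start, the pair matched at 296 bases. The substitutions from Hspa1a to Hspa1b were C44T, T47C, T249G and C276T, counted from 1 at the window's 5′ end. Both hold the paired unit GAANNTTC from 104 to 97 bases before the start. The Hspe1 stretch, at chr1:55088038-55088147 on the plus strand, holds overlapping matches to the 3-unit element from 89 to 72 bases before the start. Hspd1 is transcribed the other way, and one of its windows shares 285 bases with that of Hspe1. The same bases lie 144 to 127 bases before the Hspd1 start of that window. The Hspd1 chaperonin and the Hspe1 co-chaperonin work as a pair in mitochondria. The Hsph1 stretch, at chr5:149636337-149636436 on the minus strand, holds TTCNNGAA from 33 to 26 bases before the start. A 3-unit match, TTCTGGAAAGTTC, follows in the same gene 36 to 48 bases after that start. In Hspa5, at chr2:34771990-34772089 on the plus strand, the ER stress response element lies 65 to 47 bases before the start.

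The motifs were searched on both strands in 32851 windows of this length. Either paired unit, GAANNTTC or TTCNNGAA, was present in 15.1% of all windows. The 3-unit form, GAANNTTCNNGAA, contains both paired units and was present in 0.603%. The ER element, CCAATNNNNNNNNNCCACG, was present in 0.119%. Neither window of Dnajb1 held any of the 4 patterns, and Hspa8, Hsp90aa1 and Hsp90ab1 had no window. A match describes the letters only.

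The inducible members were described first. Hsph1, an Hsp110 protein that acts as a nucleotide exchange factor for Hsp70, varied most. Its log2 signal was 8.40, 8.29 and 7.96 on WT arrays 1 to 3, and 8.49, 8.14 and 7.66 on Ikzf4-/- 1 to 3. The dKO arrays gave 8.40, 8.89 and 8.97. Thus dKO 2 and dKO 3 stood above all other arrays of the set, while dKO 1 lay level with the highest WT array. In the second set, WT arrays 4 to 6 gave 7.49, 7.82 and 7.47, and Ikzf2-/- gave 7.60, 7.52 and 9.06. A single array, Ikzf2-/- 3, was high and the other Ikzf2-/- arrays lay within the WT range.

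The dKO mean of Hsph1 was higher than WT by 0.54 ± 0.33 (log2, SE, n = 3 per group), a 1.45-fold difference (limma, adjusted p = 1.0). It was 0.63 without WT 1 and 0.429 without the array labelled dKO 3. Between dKO and Ikzf4-/- the paired difference was 0.66 ± 0.27, or 1.58-fold, with a 95% interval of -0.03 to 1.35 (limma with replicate block, adjusted p = 0.633). By pair it was -0.09, 0.75 and 1.32. Ikzf2-/- exceeded its WT by 0.46 ± 0.33 (limma, adjusted p = 0.526). Without the array Ikzf2-/- 3 that difference was -0.034, on the array that also carried most B cell and neutrophil signal. The part of other cells in this value was not tested. In bulk RNA, fewer cells of a type and less RNA per cell cannot be told apart.

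Dnajb1 encodes a J-domain protein that delivers clients to Hsp70 and is a classical Hsf1 target. It measured 7.25, 7.23 and 6.82 on WT arrays 1 to 3, 7.43, 7.19 and 6.85 in Ikzf4-/-, and 7.15, 7.68 and 7.35 in dKO. The 3 groups overlapped. WT arrays 4 to 6 gave 6.47, 6.40 and 6.54, and Ikzf2-/- gave 6.49, 6.88 and 7.23. Both Ikzf2-/- 2 and Ikzf2-/- 3 lay above every WT array of the set, and Ikzf2-/- 1 did not.

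The Ikzf2-/- difference of Dnajb1 was 0.40 ± 0.20 (log2, SE, n = 3 per group; limma, adjusted p = 0.34), and its 95% interval ran from -0.02 to 0.82. It was 0.216 without Ikzf2-/- 3. The neutrophil list was higher on all Ikzf2-/- arrays, and its part in this value was not tested. In dKO against Ikzf4-/- the difference was 0.23 ± 0.18 (limma with replicate block, adjusted p = 0.776), made up of -0.29, 0.49 and 0.50 in the pairs. The first pair thus went the other way, as it did by a small margin for Hsph1.

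Hsp90aa1, the inducible cytosolic Hsp90, measured 10.84, 10.90 and 10.70 on WT arrays 1 to 3, 10.85, 10.89 and 10.61 in Ikzf4-/-, and 10.83, 11.13 and 10.97 in dKO. The pairs differed by -0.02, 0.24 and 0.36, a mean of 0.19 ± 0.09 (log2, SE; limma with replicate block, adjusted p = 0.675). In the second set the WT arrays gave 10.75, 10.88 and 10.73 and Ikzf2-/- gave 10.77, 10.54 and 11.21. The Ikzf2-/- arrays spanned the whole range of the set, with replicate 2 lowest and replicate 3 highest. Their mean difference was 0.05 ± 0.14, and -0.135 without Ikzf2-/- 3.

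Hspa1a, the stress-inducible Hsp70, gave a dim signal in all samples. It measured 5.28, 5.30 and 5.77 on WT arrays 1 to 3, 5.14, 5.18 and 5.30 in Ikzf4-/-, and 5.31, 5.45 and 5.41 in dKO. In all 3 pairs dKO exceeded Ikzf4-/-, by 0.18, 0.27 and 0.11, and the groups did not overlap, with a gap of about 0.01. The paired difference of 0.19 ± 0.06 was the only one among members to pass the unadjusted threshold of 0.05 in any comparison (limma with replicate block, adjusted p = 0.582). That SE depends on the fit. It was 0.101 with the block over all 9 arrays of the first set and 0.151 over all 15 arrays without the block. Fitted among all probe sets, the same probe set had an unadjusted p of 0.0509 (limma with replicate block). Against WT, dKO differed by -0.06 ± 0.15 and Ikzf4-/- by -0.25 ± 0.15. WT 3 alone was higher than every other array of its set, and without it the Ikzf4-/- difference was -0.085. WT arrays 4 to 6 gave 4.84, 4.75 and 5.34 and Ikzf2-/- 4.94, 5.14 and 5.05, a difference of 0.06 ± 0.15.

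The probe set shared by Hspa1a and Hspa1b, which cannot be split between the twin genes, measured 5.89 to 6.27 over the 15 arrays. Against WT, Ikzf2-/- differed by -0.05 ± 0.11, Ikzf4-/- by -0.06 ± 0.11 and dKO by 0.02 ± 0.11, and the paired difference of dKO and Ikzf4-/- was 0.08 ± 0.09. The last value was smaller than the 0.19 of the Hspa1a probe set. Whether the 2 probe sets differ was not tested.

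**Figure D1:**
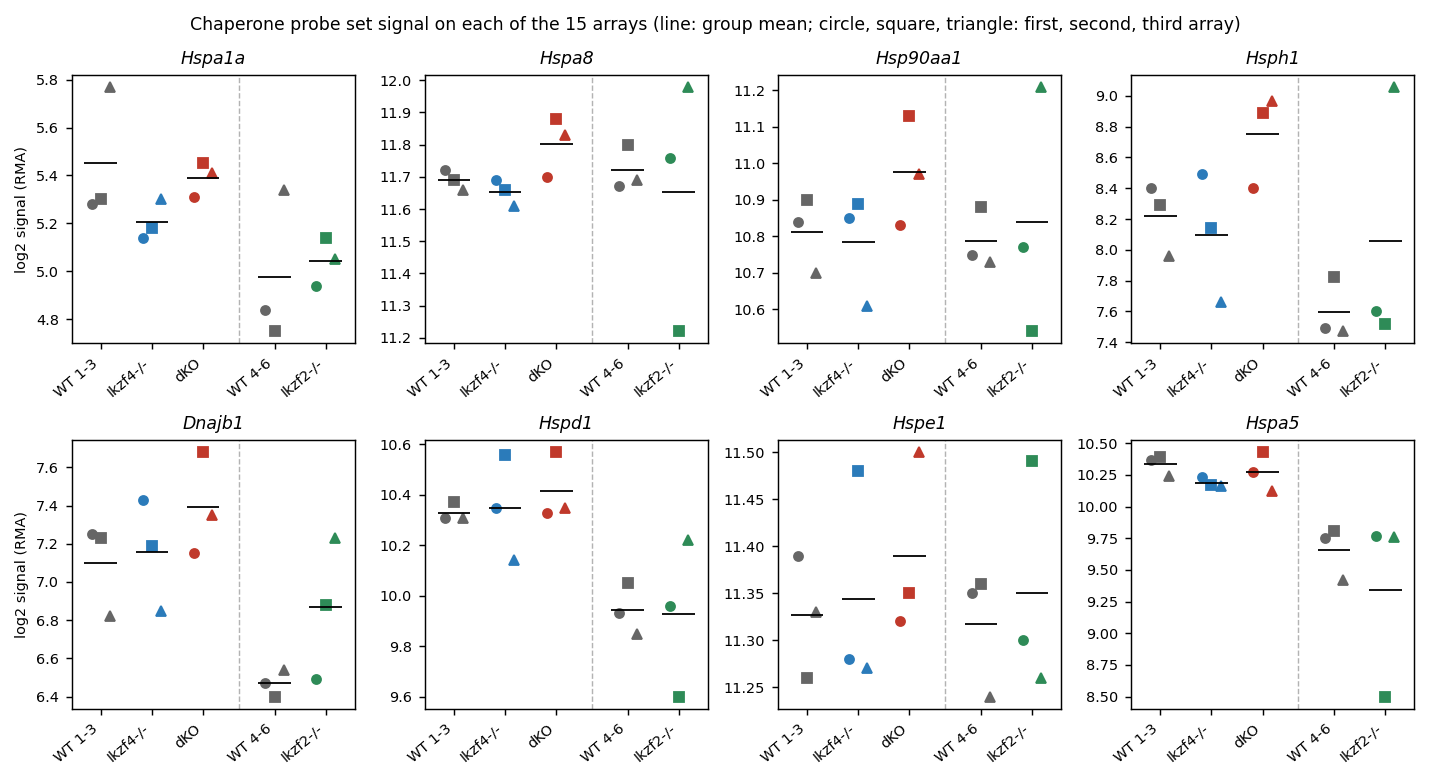
Log2 signal of the 8 testable members on each array, 1 panel per gene with its own y axis; points are arrays, black lines group means, and the dashed line separates the first set (left) from the second (right). The array Ikzf2-/- 3 gave the highest point of the second set for Hspa8, Hsp90aa1, Hsph1, Dnajb1 and Hspd1, and Ikzf2-/- 2 the lowest for Hspa8, Hsp90aa1, Hspd1 and Hspa5.

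Hspa8, the constitutive Hsp70 that folds new proteins and uncoats clathrin vesicles, was steady in the first set. It measured 11.72, 11.69 and 11.66 on WT arrays 1 to 3, 11.69, 11.66 and 11.61 in Ikzf4-/-, and 11.70, 11.88 and 11.83 in dKO. On the probe set used, every dKO array lay above every Ikzf4-/- array, with a smallest gap of 0.01. The paired difference was 0.15 ± 0.07 (log2, SE; limma with replicate block, adjusted p = 0.68), from 0.01, 0.22 and 0.23. WT arrays 4 to 6 gave 11.67, 11.80 and 11.69, and Ikzf2-/- gave 11.76, 11.22 and 11.98. Replicates 2 and 3 of Ikzf2-/- thus fell outside the WT range on opposite sides, and the mean difference was -0.07 ± 0.14. On another Hspa8 probe set dKO and Ikzf4-/- overlapped, at 11.71, 11.99 and 11.92 against 11.73, 11.62 and 11.70. There Ikzf2-/- 3, at 11.59, lay within the WT range. On the remaining probe set with the Hspa8 symbol alone, dKO and Ikzf4-/- did not overlap.

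Hspd1 and Hspe1 encode the mitochondrial chaperonin and its lid. Hspd1 measured 10.31, 10.37 and 10.31 on WT arrays 1 to 3, 10.35, 10.56 and 10.14 in Ikzf4-/-, and 10.33, 10.57 and 10.35 in dKO. In the second set it was 9.93, 10.05 and 9.85 in WT and 9.96, 9.60 and 10.22 in Ikzf2-/-. On this probe set knockout and WT overlapped in each set. The differences were -0.02 ± 0.14 in Ikzf2-/-, 0.02 ± 0.14 in Ikzf4-/- and 0.08 ± 0.14 in dKO.

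Hspe1 was the steadiest member, at 11.24 to 11.50 over all 15 arrays. Its differences from WT were 0.03 ± 0.09 in Ikzf2-/-, 0.02 ± 0.09 in Ikzf4-/- and 0.07 ± 0.09 in dKO. The pairs of dKO and Ikzf4-/- gave -0.03, 0.01 and 0.21 for Hspd1 and 0.05, -0.13 and 0.23 for Hspe1.

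Hspa5 encodes BiP, the Hsp70 of the ER. It measured 10.37, 10.39 and 10.24 on WT arrays 1 to 3, 10.23, 10.17 and 10.16 in Ikzf4-/-, and 10.27, 10.43 and 10.12 in dKO. All Ikzf4-/- arrays lay below all WT arrays, by a gap of about 0.01, yet the difference of -0.15 ± 0.25 did not pass (limma, adjusted p = 1.0). That SE pools all groups, including Ikzf2-/- with an SD of 0.73, whereas the SD was 0.08 in this WT and 0.04 in Ikzf4-/-. Fitted on the first set alone with the replicate block, the difference was -0.147 ± 0.0722 (limma, adjusted p = 0.953). WT arrays 4 to 6 gave 9.75, 9.81 and 9.42, and Ikzf2-/- gave 9.77, 8.50 and 9.76. Only Ikzf2-/- 2 stood apart, at 8.50, and it was also the array with the lowest Treg marker mean. The difference was -0.32 ± 0.25 with all arrays (limma, adjusted p = 0.565) and 0.101 without Ikzf2-/- 2. Whether cell composition has a part in that value was not tested.

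No member passed an adjusted p of 0.05 in any comparison (limma, 8 genes tested each time). In Ikzf2-/- against WT, 0.0646% of all genes passed and 16.4% had an unadjusted p under 0.05, against 0 of 8 members on both counts. In Ikzf4-/- against WT the shares of all genes were 0.0% and 2.15%, and again 0 of 8 members reached either. In dKO against WT they were 0.0646% and 4.32%, with 0 of 8 members. In dKO against Ikzf4-/- they were 0.0185% and 8.22%, with 0 of 8 members passing and 1 of 8, Hspa1a, under the unadjusted threshold.

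Groups without overlap were also counted, only on the probe set used for each gene. Hspa8 in dKO against Ikzf4-/- and Hspd1 in Ikzf2-/- against WT read otherwise on another probe set. In dKO against Ikzf4-/-, 2 of 8 members (Hspa1a and Hspa8) were higher on every dKO array, as were 4.1% of all genes, and none was lower on all, as were 4.17%. The same 2 members were higher in all 3 pairs, as were 13.8% of all genes. In dKO against WT, Hsph1 alone was higher throughout, by a gap that rounds to 0, beside 5.39% of all genes, and 0 members were lower, beside 4.13%. In Ikzf4-/- against WT, Hspa5 alone was lower throughout, beside 2.86% of all genes, and 0 members were higher, beside 3.66%. In Ikzf2-/- against WT, 0 members separated in either direction, while 10.8% of all genes were higher and 5.39% lower on all arrays.

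**Figure D2:**
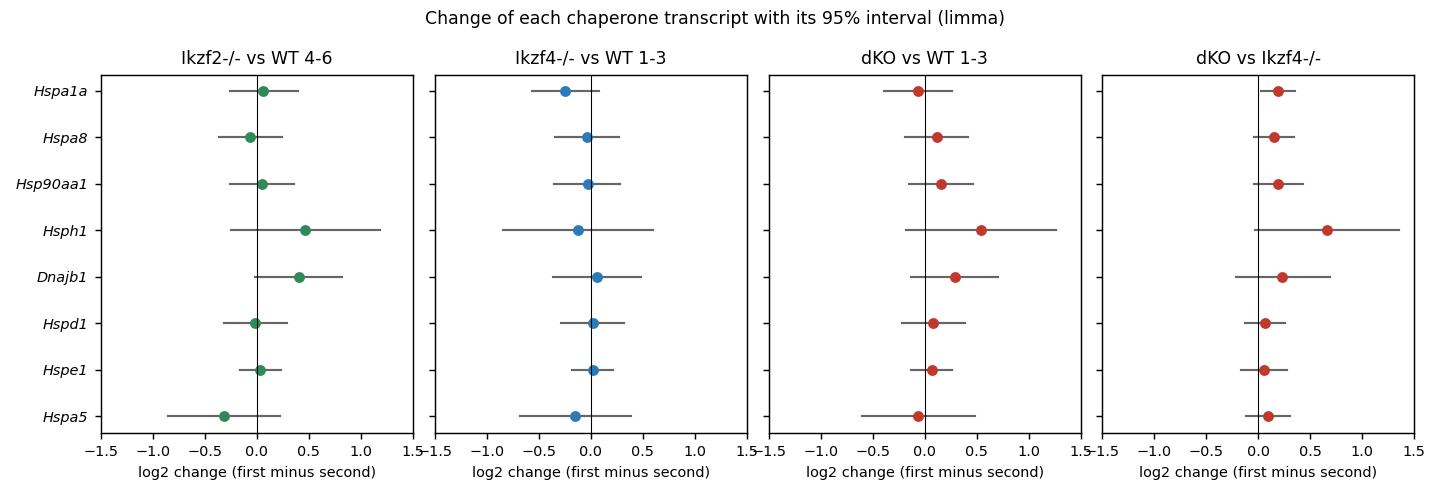
Log2 change of each testable member (points) with its 95% interval (lines) in the 4 comparisons, 1 panel each, from the limma fits. All intervals include 0 except that of Hspa1a in dKO against Ikzf4-/-, from 0.02 to 0.35, and the widest intervals belong to Hsph1.

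The members leaned one way between the knockouts. All 8 of 8 had a positive difference in dKO against Ikzf4-/-, as did 49.5% of all genes, and the median was 0.17 against 0.00 over all genes. By replicate number, the members' median was -0.01 in pair 1, 0.25 in pair 2 and 0.23 in pair 3, while the median of all genes was 0.00 in each pair. Both arrays of the high pairs on the dKO side, dKO 2 and dKO 3, carry Eif2s3y signal, as does Ikzf4-/- 3 but not Ikzf4-/- 2. The mean of the neutrophil list was 5.05, 4.98 and 5.56 in dKO and 4.92, 4.29 and 4.82 in Ikzf4-/-. It was higher in dKO in each pair and least so in pair 1. Other cell lists did not all follow. CD8 T cell genes were lower in dKO in each pair, at 5.54, 5.61 and 5.46 against 5.64, 5.91 and 5.75. The B cell list gave 4.35, 4.47 and 4.46 against 4.54, 4.46 and 4.42. Macrophage and dendritic cell genes gave 4.62, 4.55 and 4.79 against 4.63, 4.33 and 4.61. The part of sex and of other cells in these values was not tested. Without pair 3, which holds the array labelled dKO 3, the Hsph1 difference was 0.33 ± 0.231 (limma with replicate block, adjusted p = 0.864; 0.576 to 1.0 over all alternatives). Without pair 2 it was 0.614 ± 0.383, and without pair 1 it was 1.033 ± 0.168. Leaving out a pair moved Dnajb1 from 0.101 (without pair 3) to 0.493 (without pair 1) and Hsp90aa1 from 0.113 (without pair 3) to 0.301 (without pair 1).

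**Figure D3:**
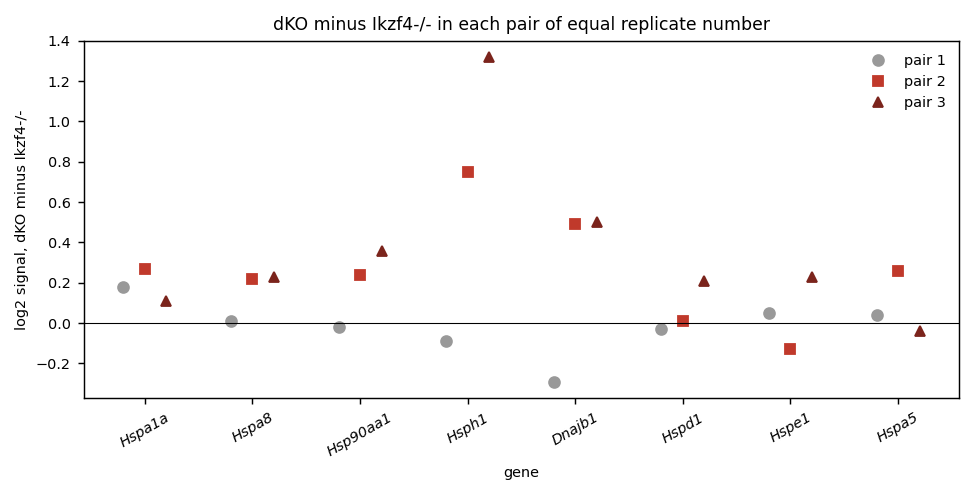
Difference in log2 signal, dKO minus Ikzf4-/-, for each testable member in the 3 pairs of equal replicate number. Pair 1 lies between -0.29 and 0.18, whereas pairs 2 and 3 reach 0.75 and 1.32 for Hsph1.

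Against WT, 6 of 8 members were positive in dKO (52.1% of all genes; median 0.10 against 0.00), 3 of 8 in Ikzf4-/- (53.2%; median -0.04 against 0.01) and 5 of 8 in Ikzf2-/- (54.9%; median 0.04 against 0.02). The comparisons of dKO and of Ikzf4-/- share WT arrays 1 to 3. Whether the change with Ikzf2 loss differs between cells with and without Ikzf4 was tested as a difference of differences. No member and 0.0% of all genes passed, 0 of 8 members and 6.29% of all genes had an unadjusted p under 0.05, and 1 of 8 members, Dnajb1, was positive, as were 54.9% of all genes. For Hsph1 that difference was -0.19 ± 0.47, with an interval from -1.21 to 0.82, so it could not be told from 0 at this spread (limma, adjusted p = 0.971).

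The array with the extreme value was often the same for several members. In the first set of 9 arrays, dKO 2 was highest for Hspa8, Hsp90aa1, Dnajb1, Hspd1 and Hspa5, 5 of 8 members beside 13.0% of all genes. The array Ikzf4-/- 3 was lowest for Hspa8, Hsp90aa1, Hsph1 and Hspd1, 4 of 8 beside 13.0%. In the second set of 6 arrays, Ikzf2-/- 3 was highest for 5 members beside 33.7% of all genes, and Ikzf2-/- 2 was lowest for 4 members beside 33.9%. These counts rest on the probe set used. Of the other Hspa8 probe sets, one was highest on WT 5 (11.69) and one on Ikzf2-/- 3 (11.96). The other Hspd1 probe set was highest on Ikzf2-/- 2 (9.25) in the second set and on Ikzf4-/- 2 (10.19) in the first. The members' median SD was 0.353 in Ikzf2-/- and 0.194 over all genes. In the other 4 groups it was 0.0884 to 0.143, against 0.0922 to 0.11 over all genes. The SD of Hsph1 in Ikzf2-/-, 0.865, exceeded that of 98.7% of genes.

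Several members had more than 1 probe set, which repeat the measurement in part. The 3 probe sets of Hspa8 gave -0.07, -0.26 and -0.02 in Ikzf2-/- and 0.12, 0.21 and 0.10 in dKO against WT. Those of Hsp90aa1 gave 0.05, 0.06 and 0.03 in Ikzf2-/- and 0.16, 0.13 and 0.15 in dKO, so they ran together. For Hspd1 the brightest probe set gave -0.02 in Ikzf2-/- and the other 0.25 ± 0.12, so its direction there rests on the probe set. On that other probe set all Ikzf2-/- arrays (8.99, 9.25 and 9.09) lay above all WT arrays of the set (8.74, 8.98 and 8.86). The probe sets of Hspe1 gave 0.03 and 0.08. A further pair of probe sets carries the symbols of Hspa8 and of the small nucleolar RNAs Snord14c and Snord14d, which are encoded in Hspa8 introns. These measured -0.76 ± 0.27 and -0.78 ± 0.26 in Ikzf2-/- (limma over 18926 probe sets, 0 called in each comparison, unadjusted p = 0.0137 and 0.0107). Their signal was 8.57 to 9.47 in Ikzf2-/- and 9.64 to 9.95 in WT, without overlap, unlike that of the Hspa8 probe sets. In this comparison 5.39% of all genes were lower without overlap, and 16.4% had an unadjusted p under 0.05 (limma). The pair gave nearly the same values on each array, so they largely repeat each other. Near-identical copies of Hspa8, Hsp90aa1, Hspd1 and Hspe1 exist in the genome, and how far these probe sets read them was not tested.

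Other genes of the network were read from a list of 88, of which 87 had a probe set of their own and 83 passed the filter. None passed an adjusted p of 0.05 in any comparison (limma), and Hsf1, the main heat shock factor, had no probe set of its own here. Unadjusted p fell under 0.05 for 14 of 83 in Ikzf2-/- against WT, 0 in Ikzf4-/- against WT, 2 in dKO against WT, and 6 when dKO was set against Ikzf4-/-. As shares of the list these were 16.9%, 0.0%, 2.41% and 7.23%, against 16.4%, 2.15%, 4.32% and 8.22% of all genes. The list's medians in the same order were 0.11, -0.01, 0.04 and 0.04, against 0.02, 0.01, 0.00 and 0.00 over all genes.

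The heat shock factor Hsf2 measured 6.35, 6.66 and 6.05 in Ikzf2-/- and 5.95, 6.00 and 6.08 in WT, a difference of 0.34 ± 0.16 (limma, adjusted p = 0.294). The smallest p of the list there belonged to Dnajb9, an ER J-domain protein that partners BiP. Its mean was 7.88 ± 0.38 (SD, n = 3) in Ikzf2-/- and 7.16 ± 0.05 in WT, a difference of 0.72 ± 0.18 (limma, adjusted p = 0.0917). Hspa5 itself had a negative value, which rested on Ikzf2-/- 2 and was 0.101 without that array. Grpel1, the nucleotide exchange factor of mitochondrial Hsp70, differed by 0.48 ± 0.14, and Bag5, an exchange factor of cytosolic Hsp70, by 0.48 ± 0.14 (limma, adjusted p = 0.122 and 0.131). With the array Ikzf2-/- 1 left out, 2 genes of the list, Dnajb9 and Bag5, passed, or 2.41% of the list, while 404 of all genes, or 3.73%, did so in that fit. In the difference of differences Dnajb9 stood at 0.84 ± 0.25 (limma, adjusted p = 0.767).

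In dKO against Ikzf4-/- the smallest p values of the list were those of the ER genes Sdf2l1 and Creld2. Of the 17 ER genes, 3 had an unadjusted p under 0.05 there (limma with replicate block), or 17.6%, beside 8.22% of all genes. Sdf2l1, an ER partner of BiP and J-domain proteins, differed by 0.31 ± 0.08 and Creld2, an ER stress-inducible protein, by 0.33 ± 0.08 (limma with replicate block, adjusted p = 0.473 for both). Bag3, a co-chaperone and Hsf1 target, differed by 0.46 ± 0.15 (limma, adjusted p = 0.567). In dKO against WT, Hspa14 differed by 0.19 ± 0.08, Clpb, a mitochondrial disaggregase, by -0.30 ± 0.13, and Dnajb14 by 0.22 ± 0.12 (limma, adjusted p = 1.0 for each). In Ikzf4-/- against WT the smallest p values were those of Hspa13 (0.27 ± 0.13), Ptges3, an Hsp90 co-chaperone (0.27 ± 0.14), and Bag2 (-0.13 ± 0.08), also at an adjusted p of 1.0.

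By family, the 10 Hsp90 co-chaperones had a median of 0.19 in Ikzf2-/-, -0.03 in Ikzf4-/-, 0.11 in dKO, each against WT, and 0.11 between dKO and Ikzf4-/-. The 17 ER genes gave 0.07, -0.05, 0.05 and 0.07, and the 8 subunits of TRiC, the cytosolic chaperonin, gave 0.16, 0.04, 0.09 and 0.04. The 16 further J-domain proteins gave 0.08, 0.00, 0.03 and 0.02. The 3 mitochondrial quality control genes, Clpb, Clpp and Lonp1, gave 0.15, -0.03, -0.15 and -0.13.

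**Figure D4:**
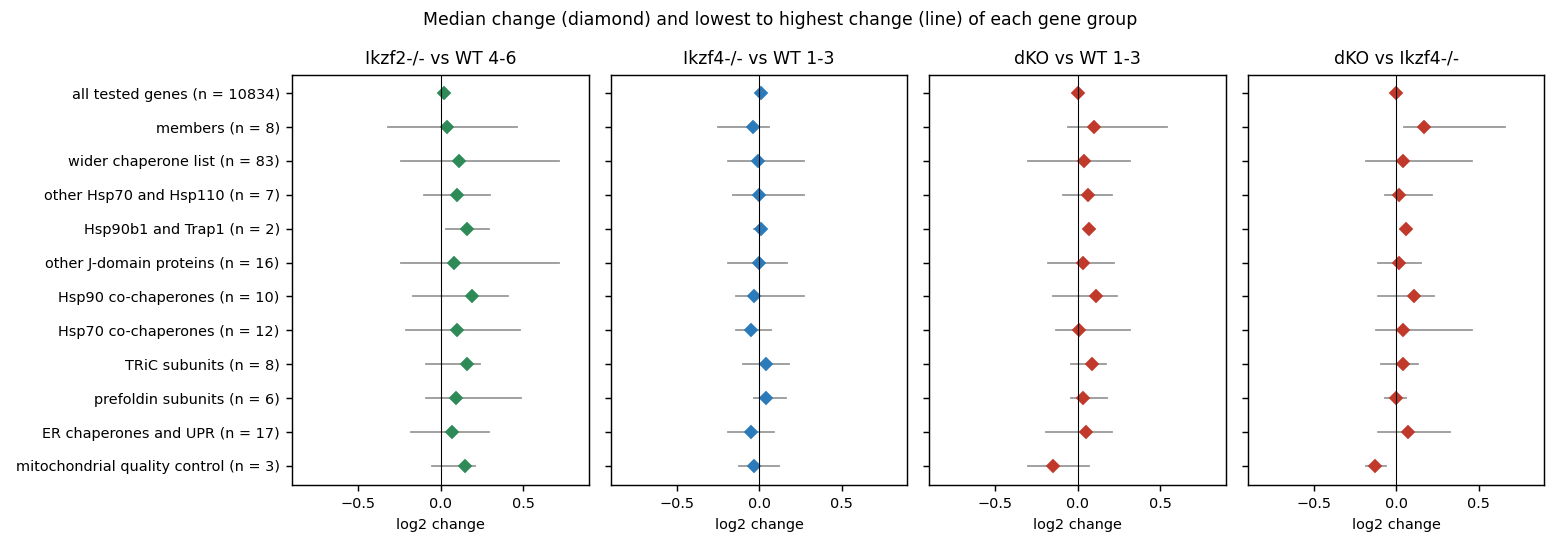
Median log2 change (diamonds) and lowest to highest change (grey lines) of the members, the wider chaperone list and its families in the 4 comparisons; for all tested genes only the median is drawn. The members' median in dKO against Ikzf4-/-, 0.17, is set beside 0.04 for the wider list.

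Genes known to respond to cell sorting and handling were read as a separate list of 12, of which 10 passed the filter. None passed in any comparison (limma). The list's mean was 7.29 to 7.36 on WT arrays 1 to 3, 7.09 to 7.17 in Ikzf4-/- and 7.13 to 7.32 in dKO. In the second set it was 6.48 to 6.63 in WT and 6.50 to 6.96 in Ikzf2-/-, highest on Ikzf2-/- 3. Jun, an AP-1 subunit, measured 7.82 ± 0.24 (SD, n = 3) in WT, 7.09 ± 0.59 in Ikzf4-/- and 7.63 ± 0.30 in dKO. Its difference was -0.72 ± 0.27 in Ikzf4-/- against WT (limma, adjusted p = 1.0) and 0.54 ± 0.18 in dKO against Ikzf4-/- (limma with replicate block, adjusted p = 0.567). Zfp36, which encodes an RNA-binding protein that promotes mRNA decay, went the other way, at 9.48 ± 0.12 (SD, n = 3) in dKO, 9.66 ± 0.04 in Ikzf4-/- and 9.70 ± 0.17 in WT. It was lower in dKO than in Ikzf4-/- by pair values of -0.12, -0.15 and -0.27, without overlap (limma with replicate block, adjusted p = 0.582). The part of handling in the members' values was not tested.

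Of the inducible members, Hsph1, Dnajb1 and Hsp90aa1 correlated with their common mean over the 15 arrays, and Hspa1a hardly did. That mean used values not scaled for spread, so Hsph1, which varied most, weighs most in it. With each set centred on its own mean, the Pearson correlation with the mean of Hspa1a, Hsph1, Dnajb1 and Hsp90aa1 was 0.963 for Hsph1, 0.886 for Dnajb1, 0.867 for Hsp90aa1 and 0.145 for Hspa1a, genes that are themselves part of that mean, which raises their values. Without Ikzf2-/- 3 and dKO 2 these were 0.918, 0.732, 0.616 and 0.063 over 13 arrays. It was 0.608 for Hspd1, 0.585 for Hspa8, 0.162 for Hspa5 and 0.014 for Hspe1. Outside all lists, the genes most like it were Safb (0.921), Fbxo33 (0.913), Dynll1 (0.885), Gins4 (0.881) and Cxcr4 (0.880). Their Spearman coefficients were 0.860, 0.832, 0.886, 0.751 and 0.843.

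Without Ikzf2-/- 3 and dKO 2, the arrays farthest from the median of that mean, the Pearson values of the 5 genes were 0.894, 0.725, 0.722, 0.618 and 0.741 over 13 arrays. Of the wider list, Stip1, which links Hsp70 to Hsp90, reached 0.843 and 0.653 without those arrays. The arrays differ in set and in signal from other cells, which the genes of an array share, and no test was made.

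**Figure D5:**
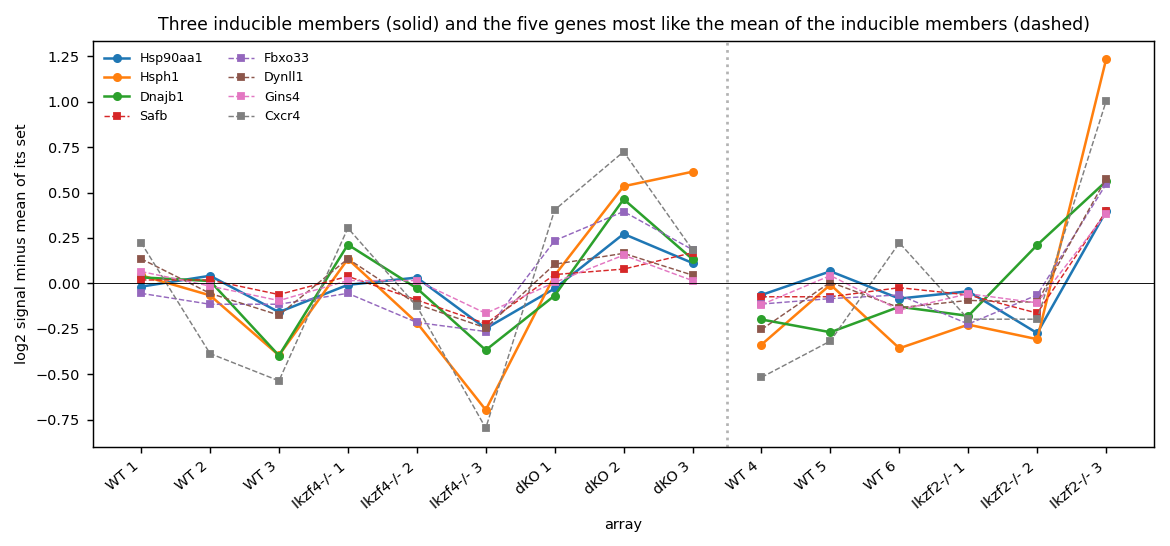
Log2 signal minus the gene's mean in its set on each of the 15 arrays, for Hsph1, Dnajb1 and Hsp90aa1 (solid) and the 5 genes most like the mean of the inducible members (dashed); lines only join the points of a gene, and the dotted line separates the sets. The array Ikzf2-/- 3 is the highest of its set for all 8 genes drawn.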

How the data were processed

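The deposited table holds log2 expression values of 35556 probe sets on 15 arrays, made by the authors with RMA in Affymetrix Expression Console 1.3.1, per the submitters' processing notes. RMA sums probes per probe set, so differences between probe sets of a gene are kept; array medians were 4.82 to 5.01. The table gives no counts, and the number of arrays limits precision. Of the probe sets, 21789 carried 1 gene symbol, 1621 several and 12146 were not listed. No deposited value was changed.

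The brightest probe set per gene was used, and genes were tested when a group mean exceeded the median of all probe sets. limma 3.58.1 (R 4.3.3) was fitted to all 15 arrays with a mean for each group of each set, and to the 6 dKO and Ikzf4-/- arrays with replicate number as a block. In the first fit the SE of a gene pools the spread of all groups, including those outside the comparison. Benjamini-Hochberg adjustment ran over 10834 genes, and the scripts were tested on simulated data. The block was checked first: deviations from group means of same-numbered Ikzf4-/- and dKO arrays correlated at 0.43, 0.197 and 0.267 over genes, and those of WT and Ikzf4-/- at 0.135, 0.218 and 0.306. Those of WT and dKO gave 0.0707, 0.0456 and 0.172. The labels do not say what a number shares.

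Genes named beyond the members are those with the smallest p of the wider and handling lists per comparison, Hsf2, and the 5 genes most correlated with the inducible members; the small nucleolar RNA probe sets and some further family members were named after their values were seen. The members and lists were chosen with earlier results of these data known. Alternatives covered the filter, scaling, choice of probe set, array weights, pooled WT arrays, the block and leaving out arrays.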

Additional observations from a re-analysis of the deposited data

How the results depend on the processing

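No member passed under any alternative run, including the replicate block on the first set and the fits with no block. With the replicate block over the 9 arrays of the first set, the Hsph1 difference of dKO and Ikzf4-/- was again 0.659 (limma, adjusted p = 0.651). The block changed no member's call. Over all genes, the 7 calls in dKO against WT became 1 with the block on the first set and 5 on that set without it. For dKO against Ikzf4-/- the 2 calls became 3 (15 arrays) or 1 (6 arrays) without the block. The main fit for dKO against Ikzf4-/- already held only the 6 arrays of those groups, with the block. Of the members' differences, 352 kept their sign and 19 turned under other settings. With an array left out 486 kept it and 42 turned. All were uncalled and the cause was not tested. The kept signs include fits that could not move a difference, so these counts overstate stability. Such fits left out an array outside the comparison, or changed only the filter, the block or the groups fitted. In Ikzf2-/- against WT the turned values were -0.174 for Hspa1a with all WT pooled, 0.040 for Hspa8, 0.015 for Hspd1 and -0.035 for Hspe1 with array weights, 0.032 and 0.116 for Hspd1 with equal medians and averaged probe sets, and, without WT 1 and Ikzf2-/- 3, -0.135 for Hsp90aa1 and -0.034 for Hsph1. In Ikzf4-/- against WT they were 0.191 for Hsph1 and 0.188 for Hspa5 with WT pooled and -0.006 for Hspe1 with quantile normalization. In dKO against WT they were 0.004 (weights) and 0.177 (pooled) for Hspa1a and 0.275 for Hspa5 (pooled). In the difference of differences they were -0.017 for Dnajb1 and 0.029 for Hspe1 without those arrays, 0.024 for Hspd1 and 0.003 for Hspe1 with averaged probe sets, and 0.028 for Hspe1 with equal medians. Leaving out each array in turn, Ikzf2-/- against WT ranged from -0.049 to 0.245 for Hspa1a, -0.229 to 0.150 for Hspa8, -0.135 to 0.199 for Hsp90aa1, -0.034 to 0.734 for Hsph1, -0.165 to 0.148 for Hspd1, -0.040 to 0.078 for Hspe1 and -0.530 to 0.101 for Hspa5. Ikzf4-/- against WT ranged from -0.091 to 0.052 for Hsp90aa1, -0.320 to 0.099 for Hsph1, -0.083 to 0.212 for Dnajb1, -0.086 to 0.122 for Hspd1 and -0.050 to 0.054 for Hspe1. Against WT, dKO ranged from -0.145 to 0.1 for Hspa1a and -0.141 to 0.018 for Hspa5. Against Ikzf4-/-, dKO ranged from -0.007 to 0.111 for Hspd1, -0.040 to 0.136 for Hspe1 and -0.002 to 0.150 for Hspa5. The difference of differences ranged from -0.234 to 0.060 for Hspa1a, -0.330 to 0.004 for Hsp90aa1, -0.693 to 0.075 for Hsph1, -0.017 to 0.351 for Dnajb1, -0.230 to 0.083 for Hspd1, -0.088 to 0.037 for Hspe1 and -0.617 to 0.014 for Hspa5. The wider list had 0 to 2 calls in Ikzf2-/- against WT. Over all genes, the 7 calls in Ikzf2-/- against WT became 2 with no filter, 29 with a stricter one, 1 with equal medians, 23 with quantile normalization, 66 with array weights and 0 with only the groups compared or WT pooled; the 7 in dKO against WT became 0, 4, 0, 2, 22, 1 and 4 in the same order, the last 2 for only the groups compared and WT pooled. Pooling WT moved the median of all genes to -0.16 in Ikzf2-/- and to 0.2 in Ikzf4-/- and dKO. With an array left out, all-gene calls ranged from 0 to 404 in Ikzf2-/- against WT (404 without Ikzf2-/- 1, 165 without Ikzf2-/- 2), 0 to 9 in dKO against WT, 0 to 1 in Ikzf4-/- against WT, 0 to 4 in the difference of differences and were 0 each time in dKO against Ikzf4-/-. With 3 arrays a group, the 95% interval of Hsph1 reached 1.18 in Ikzf2-/- against WT and 1.35 in dKO against Ikzf4-/-.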
